A study of Mus musculus with 28 samples.

Results

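The genes described here encode the proteins of the cytosolic ribosome in mouse skin epidermis, read out by RNA-seq. They were taken as every protein-coding gene whose symbol is Rpl or Rps followed by a number and an optional a, x or y, together with Rpsa, Rplp0, Rplp1, Rplp2 and Fau. S6 kinase genes, symbols with a hyphen and the paralogues ending in l were left out. The rule found 77 genes among the 55536 gene identifiers of the series, 46 for the large subunit and 31 for the small subunit, and the rule used no measured value. All 77 passed the filter on low counts and stood among the 17493 genes tested, so the filter removed no member.

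The series holds 28 libraries of interfollicular epidermis, the skin between the hair follicles, from mice labelled as wild type that carried a tamoxifen-inducible Cre together with a RosatdTomato reporter. The 4 lines differed in the gene whose promoter drives the Cre, and each gave epidermal cells named as positive for that gene (called labelled cells here) and total interfollicular epidermis; these 2 kinds of cells are called gates. In tail skin, the lines Slc1a3CreER, AspmCreER and Dlx1CreER gave 2 libraries each of labelled cells and 2 each of total cells. In back skin, Slc1a3CreER and AspmCreER gave 3 libraries each of labelled cells and 3 each of total cells, and K14CreER gave 2 and 2. Line and mouse background cannot be told apart in any comparison of lines. Every mouse received tamoxifen at 100 ug/ml over 5 days between postnatal days 30 and 34 and was harvested at postnatal day 49, when hair follicles rest (telogen). The 2 weeks between allow labelled cells to include the progeny of those first marked, and the libraries hold K14CreER from back skin and Dlx1CreER from tail skin only.

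A cytosolic ribosome is built from a small subunit, which reads the mRNA, and a large subunit, which joins amino acids, and each protein of either is normally needed in a single copy per ribosome. The stalk proteins are the known exception and sit on the large subunit as several copies. In mammals these mRNAs belong to the TOP class, whose 5′ ends begin with a C and an unbroken run of pyrimidines, and whose translation is regulated as a group through mTORC1. Epidermal stem and progenitor cells are known for tight control of protein synthesis.

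The 5′ starts are shown first because the TOP run is the sequence feature that this gene family is best known for, and because its presence can be set beside the measured changes. RefSeq on GRCm38.p6 placed a start for 57 of the 77 genes. Each line below gives 10 bases before and 20 bases after the annotated start on the transcribed strand, 5′ to 3′, with the run in capitals where the first transcribed base is C and at least 4 further C or T follow.
Fau (19:6057937-6057966, plus strand): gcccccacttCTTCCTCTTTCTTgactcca
Rpl15 (14:18270967-18270996, minus strand): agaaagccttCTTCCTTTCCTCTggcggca
Rpl35 (2:39005112-39005141, minus strand): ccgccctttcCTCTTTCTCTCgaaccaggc
Rps6 (4:86857348-86857377, minus strand): gaagtcgggcCTCTTTTTCgtgacgcctcc
Rps27 (3:90213629-90213658, minus strand): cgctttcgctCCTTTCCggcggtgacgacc
Rps10 (17:27635225-27635254, minus strand): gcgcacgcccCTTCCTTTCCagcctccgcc
Rplp2 (7:141447641-141447670, plus strand): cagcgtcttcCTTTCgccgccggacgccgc
Rplp0 (5:115559457-115559486, plus strand): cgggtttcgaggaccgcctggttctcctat
Rplp0 is the case without a run at its annotated start, although it belongs to the same family. By this strict reading 14 of the 57 genes (24.6%) had a start that began a run, against 813 of all 27025 genes with a start (3.01%). A gene with several annotated starts counted if any of them began a run. The longest run among the members was 13 bases. The letters CTTTCC on the transcribed strand, within 50 bases each side of the start, stood at 18 of the 57 members (31.6%) and 5.43% of all genes. The letters CCGGAAG on either strand stood at 12 members (21.1%) and 5.98% of all genes. The run and CCGGAAG are not particular to the members. A start with a run was found for 29.4% of the 17 other TOP mRNAs on a fixed list. CCGGAAG stood at 29.0% of 69 mitochondrial ribosomal protein genes, whose starts held no run. CTTTCC stood at 1 of the 17 other TOP mRNAs (5.88%) and at 5 of the 69 mitochondrial ribosomal protein genes (7.25%). A run that an annotation places a few bases away is missed by this count, and a match is a description of letters.

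Between genes, levels were compared per length, as CPM (counts scaled to a common library size) divided by the length of the principal mRNA in kilobases. The members' mean over the 28 libraries had a median of 1066 CPM per kilobase, 64 of 77 were above 500 and 3 were below 100. Rplp1, a stalk protein present in several copies, had the highest value at 4096 CPM per kilobase. Rps14 and Rps15, which sit on the small subunit, followed at 3106 and 3040, and Rplp0, the scaffold that the stalk proteins attach to, stood at 2757. Rps12 had 2710 and Rpl32 had 2554 CPM per kilobase. These 6 genes together took 15.8% of all member counts.

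The lowest values fell on Rpl24 at 2.21, Rps10 at 8.68 and Rpl13a at 38.6 CPM per kilobase. These are the 3 members with more than 50% of the mRNA inside the exons of another annotated gene on the same strand: 71.5% of Rpl24 by Gm28037, 53.6% of Rps10 by RPS10-NUDT3 and 59.3% of Rpl13a by Gm45713. Each of the 3 partners was listed at 0 CPM in every library. The values of these genes are therefore uncertain in level, and their part in what follows is given separately. The library kit did not keep strand, so overlap on the opposite strand can also move a count. A further 6 members had 34.7 to 68.3% of the mRNA inside exons of a gene on the opposite strand: Rpl35, Rpl23a, Rps25, Rpl5, Rpl31 and Rpl30. They ranked 62 to 71 of 77 by level per kilobase (348 to 582), and their partners reached at most 1.43 to 121 CPM in any library, so their levels are uncertain too. Rpl24 had no count in 1 library, where 3 counts would have been 0.383 CPM. The other 74 members had a lowest value of 127 (Rps15a), then 238 (Rpl15) and 329 (Rps20), and a median of 1093 CPM per kilobase. The annotated principal mRNA used for Rps15a is 5179 bases and that for Rps20 3706 bases, against a median of 775 bases over the members, so their values per kilobase depend on that choice.

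**Figure D1:**
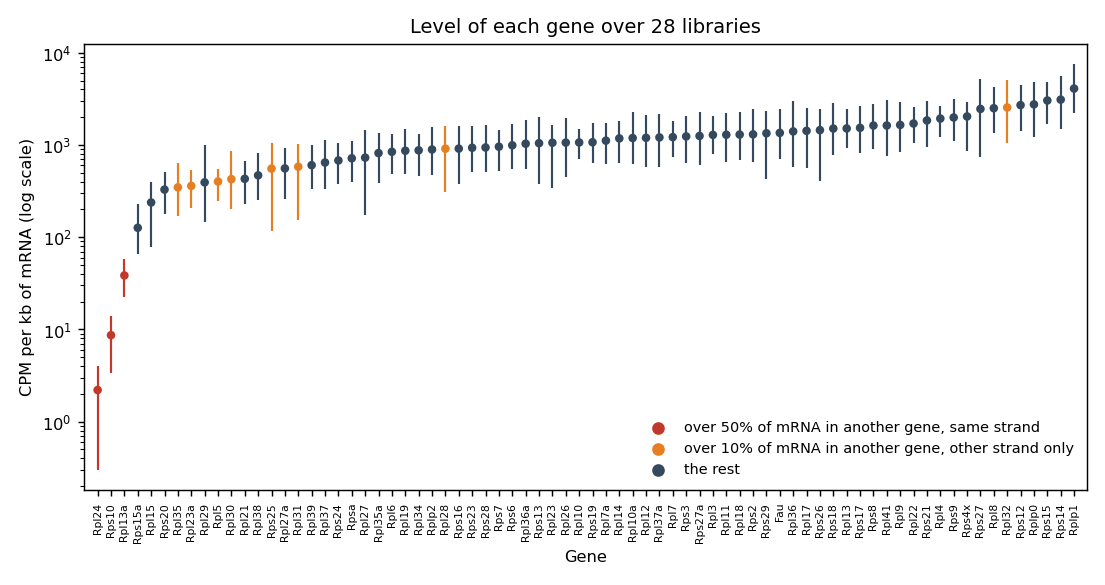
Level of 74 of the 77 genes in CPM per kilobase of principal mRNA (log axis), with the mean and the range over 28 libraries; the lowest Rpl24 value, 0, is drawn at 0.3. Rplp1 stands highest at 4096, and Rpl24, Rps10 and Rpl13a, at 2.21, 8.68 and 38.6, lie apart from the other genes drawn.

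Among proteins with roles of their own, mean levels in CPM per kilobase were 718 for Rpsa (also known as the laminin receptor precursor), 895 for the stalk protein Rplp2, and 993 for Rps6, the substrate of S6 kinase. Rpl10, which joins the large subunit late in assembly, had 1066, Rps4x, the X-linked small-subunit protein, had 2040, and Rpl22 had 1711. The short proteins Rpl39 and Rpl41 had 605 and 1628, and Fau, whose product carries a ubiquitin-like part ahead of the small-subunit protein, had 1354. The order between these genes shifts with the length used: over the union of exons the highest 3 were Rplp1, Rps15 and Rplp0, while the 3 overlapped genes stayed lowest.

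Library totals ran from 7738262 to 37670589 counts, with 14436 to 22500 genes detected. Markers of basal keratinocytes summed to 59810 CPM or more in every library, and those of muscle to at most 4.47 CPM and of endothelium to at most 14.3 CPM. Processed pseudogenes of ribosomal proteins, of which 266 of 303 had a count, took 0.0242 to 0.066% of counts. Reads of these genes can be split with such copies, since 76 of the 77 members share at least 1 stretch of 50 bases with another gene. One library stands apart, number 4 of back Slc1a3CreER total cells (numbers are those of the labels): it had the fewest counts and genes, and mitochondrial transcripts at 0.208%, against up to 2.32% elsewhere. Its members' deviations from their own means, after the mean of all members was taken off, had an SD of 0.689 on the log2 scale, against 0.146 to 0.282 in the other 27 libraries, and 12 members were off by more than 1. In the comparisons of its group, member counts, medians and named changes are given with and without it below, while lists and length classes are given with it.

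The members' summed share of all counts ranged from 4.48 to 11.57% over the 28 libraries. In tail Slc1a3CreER skin the share was 11.57 and 9.79% in labelled cells and 11.21 and 8.88% in total cells. In tail AspmCreER skin it was 8.04 and 8.90% in labelled cells and 7.16 and 7.70% in total cells, and in tail Dlx1CreER skin 7.20 and 5.95% in labelled cells and 6.91 and 5.77% in total cells. The highest shares thus belonged to the tail Slc1a3CreER mice in both gates, and the tail Dlx1CreER libraries held the lowest 3 shares among tail samples. In back skin, K14CreER gave 8.14 and 8.48% in labelled cells and 8.33 and 8.56% in total cells. AspmCreER back skin gave 6.93, 6.72 and 9.03% in labelled cells and 7.59, 6.24 and 7.42% in total cells. Slc1a3CreER back skin gave 6.95, 4.48 and 5.81% in labelled cells and 5.57, 5.44 and 5.70% in total cells, so every tail library of that line was above every back library of it. Group means were 10.7 ± 1.3% in tail and 5.75 ± 1.2% in back labelled Slc1a3CreER cells, and 10.1 ± 1.6% in tail and 5.57 ± 0.13% in back total cells (SD, n = 2 and 3 libraries in each). Without the library that stands apart, back total cells had 5.51 ± 0.089% (SD, n = 2). In bulk samples, fewer cells of a type and less RNA per cell cannot be told apart.

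**Figure D2:**
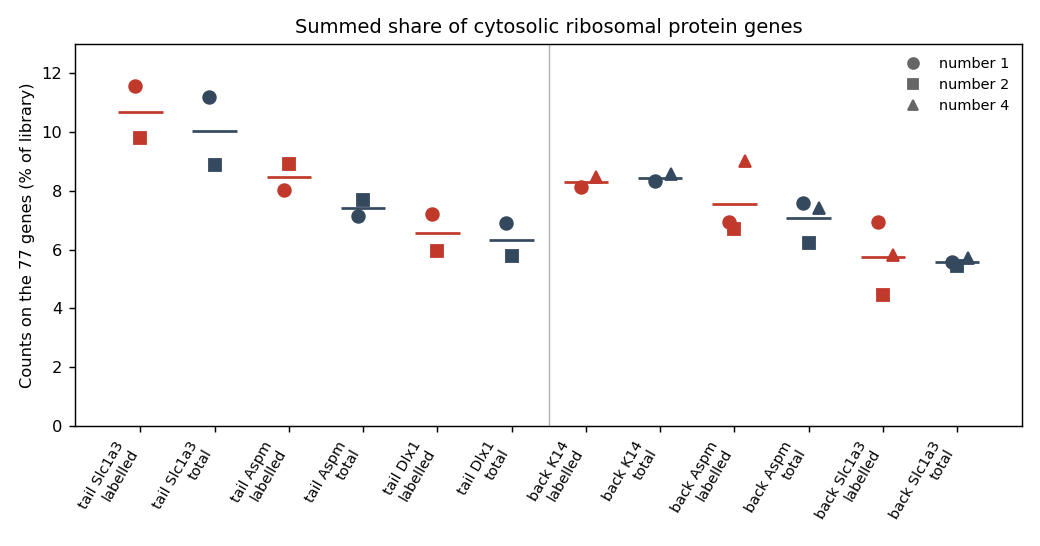
Percent of all counts on the 77 genes in each library, by line, site and gate; points are libraries, marked by number, and short lines are group means. The tail Slc1a3CreER libraries lie at 8.88 to 11.57% and the back Slc1a3CreER libraries at 4.48 to 6.95%.

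The share moved together with a feature of the whole library, the length of the mRNAs that took its counts. Genes with mRNAs of 4000 bases or more took 21.35 to 38.28% of the counts on other protein-coding genes, and those under 1000 bases took 3.62 to 7.15%. The first libraries of tail Slc1a3CreER had the highest ribosomal protein shares and the lowest shares of long mRNAs, 21.35% in labelled and 22.70% in total cells. The second library of back Slc1a3CreER labelled cells had the lowest ribosomal protein share and the highest share of long mRNAs, 38.28%. Of the 77 members, 53 have an mRNA under 1000 bases.

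**Figure D3:**
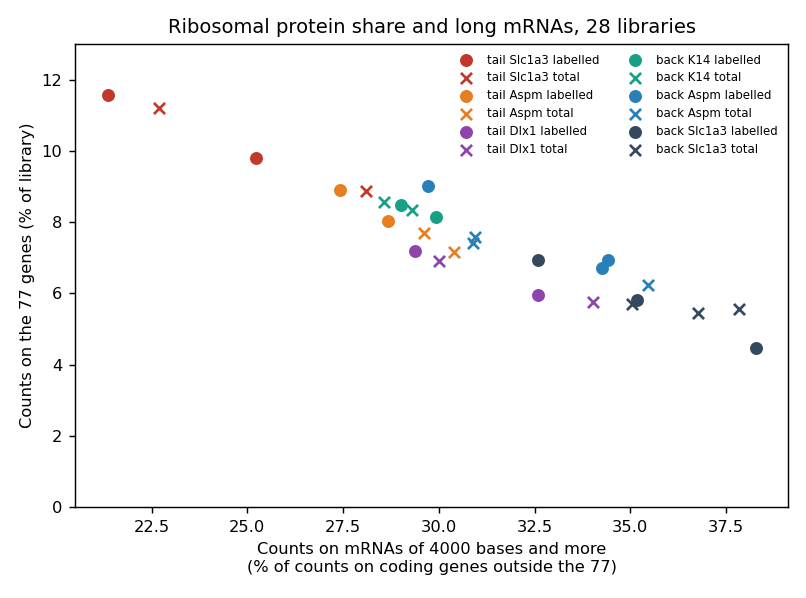
Percent of all counts on the 77 genes (vertical) against the percent of counts on other protein-coding genes with mRNAs of 4000 bases or more (horizontal); each point is a library. Libraries with 11.57% on ribosomal protein genes and 21.35% on long mRNAs lie at one end, and those with 4.48% and 38.28% at the other.

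Tail was compared with back skin in the lines sampled at both sites. In Slc1a3CreER labelled cells, 73 of the 77 genes rose in tail skin and 1 fell, with a median change of 1.10 on the log2 scale (2.14-fold), while the median over all genes tested was -0.09. In this comparison 40.6% of all genes passed, 19% higher and 21.6% lower, against 96.1% of members. Rpl36, a large-subunit protein, showed the largest change. It had 1163 and 965 CPM in tail labelled cells, against 415, 223 and 320 CPM in back labelled cells, and was 1.74 higher on the log2 scale (SE 0.26, edgeR quasi-likelihood adjusted p = 1.1e-05). The tail values lay well above the back values, with no overlap. Rps27, a zinc-finger protein of the small subunit, had 1779 and 1373 CPM in tail, against 656, 425 and 477 CPM in back labelled cells (log2 change 1.60, SE 0.25, adjusted p = 2.31e-05). Rpl32 had 2634 and 2090 CPM in tail, against 934, 604 and 818 CPM in back (log2 change 1.59, SE 0.20, adjusted p = 1.33e-06). Both genes had every tail library above every back library. Rpl27 changed by 1.61, Rpl29 by 1.55 and Rps25, a small-subunit protein known from internal initiation, by 1.46, and all passed. The genes not called higher were Rpl13a, Rpl24 and Rpl26, which did not pass, and Rps10, which fell. The estimated change was positive for 75 members and negative for 2. Rps10 had 6.69 and 3.26 CPM in tail, against 11.4, 8.39 and 7.78 CPM in back, a log2 change of -0.89 (SE 0.33, edgeR adjusted p = 0.0346). Rps10, Rpl13a and Rpl24 are the 3 genes with same-strand overlap. Of the 68 members with neither kind of overlap, 67 rose and none fell, with a median of 1.10.

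Proteins with roles of their own, described above by level, rose in the same comparison. The stalk protein Rplp1 had 3747 and 3190 CPM in tail, against 1935, 1098 and 1558 CPM in back labelled cells (log2 change 1.18, adjusted p = 3.42e-05). Its partner Rplp2 had 1506 and 1215 CPM, against 822, 451 and 696 CPM (log2 change 1.05, adjusted p = 0.00227). Both had every tail library above every back library. Rpsa, the laminin receptor precursor, had 2154 and 1895 CPM, against 1123, 763 and 979 CPM (log2 change 1.08, adjusted p = 0.00076). Fau had 1253 and 1037 CPM, against 586, 357 and 501 CPM (log2 change 1.25, adjusted p = 1.11e-05), and Rpl41 had 1808 and 1599 CPM, against 937, 441 and 708 CPM (log2 change 1.29, adjusted p = 0.0004). The smallest passing changes in this group were those of Rpl22 at 0.62, Rpl10 at 0.69, Rps4x at 0.74 and Rpl39 at 0.87. Rpl22 had 1211 and 898 CPM in tail, against 836, 517 and 700 CPM in back, so that the second tail library stood close to the highest back library. Over the 77 genes the middle 50% of changes lay between 0.92 and 1.24. Rpl26, the gene without same-strand overlap that did not pass, had 1022 and 488 CPM in tail, against 573, 263 and 482 CPM in back, and the groups overlapped.

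Total cells of the same line gave 69 genes higher in tail and none lower, with a median change of 0.98 (1.97-fold), where 39.3% of all genes passed and 19.1% were higher. All 69 were among the 73 of labelled cells, that is 94.5% of the labelled list and 100% of the total list, and 63 of the 68 members without overlap rose. Labelled and total libraries of the same number deviated together, so the 2 lists are not separate evidence, here or in the comparisons of lines. Rplp0 had 6226 and 5683 CPM in tail total cells, against 2618, 2287 and 1659 CPM in back total cells (log2 change 1.44, SE 0.18, adjusted p = 1.05e-06), with no overlap. Rps6, the S6 kinase substrate, had 1351 and 1059 CPM in tail, against 614, 560 and 719 CPM in back total cells (log2 change 0.93, SE 0.19, adjusted p = 0.00036). Rps27 (1.64), Rps25 (1.66), Rpl27 (1.62), Rpl32 (1.59) and Rps13 (1.57) had the largest changes. Without the first tail library of total cells 45 members passed in this comparison, and without back library 4 of total cells 72, with a median of 0.98. Without that library Rps6 changed by 1.04, Rps25 changed by 1.30, Rps27 by 1.36, Rpl27 by 1.30, Rpl32 by 1.45, Rps13 by 1.34 and Rplp0 by 1.28.

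The same comparison in AspmCreER mice gave few calls among members. In labelled cells 2 members were higher and 2 lower in tail skin, with a median change of 0.13, where 27.2% of all genes passed, 12.7% higher and 14.5% lower. In total cells 1 was higher and 1 lower, with a median change of 0.04, where 23% of all genes passed, 11.2% higher and 11.8% lower. Of the members 5.19% passed in labelled and 2.60% in total cells. Rpl10a, a large-subunit protein, rose in both gates: it had 1101 and 1189 CPM in tail labelled cells, against 751, 705 and 722 CPM in back labelled cells (log2 change 0.66, SE 0.17, adjusted p = 0.00564). In total cells it had 989 and 923 CPM in tail, against 797, 630 and 597 CPM in back (0.50, SE 0.17, adjusted p = 0.0358), with no overlap in either gate. Rpl32 was the other higher gene in labelled cells, with 1753 and 1884 CPM in tail, against 1052, 1079 and 1385 CPM in back (0.63, SE 0.20, adjusted p = 0.0218). Rps10 fell in both gates, with log2 changes of -1.10 and -1.23 (adjusted p = 0.0155 and 0.00826), and Rpl13a fell by 0.63 in labelled cells (adjusted p = 0.018); both are overlapped genes. The count in labelled cells is 0 without the second tail library, 2 without the first and 12 without back Slc1a3CreER total library 4, which enters the shared estimate of spread. That in total cells is 0 without either tail library, 1 without back AspmCreER total library 2 or 4 and 5 without back Slc1a3CreER total library 4. Over 7 other settings of scaling, filter, samples fitted and tool, the counts were 4 to 10 in labelled and 2 to 5 in total cells.

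**Figure D4:**
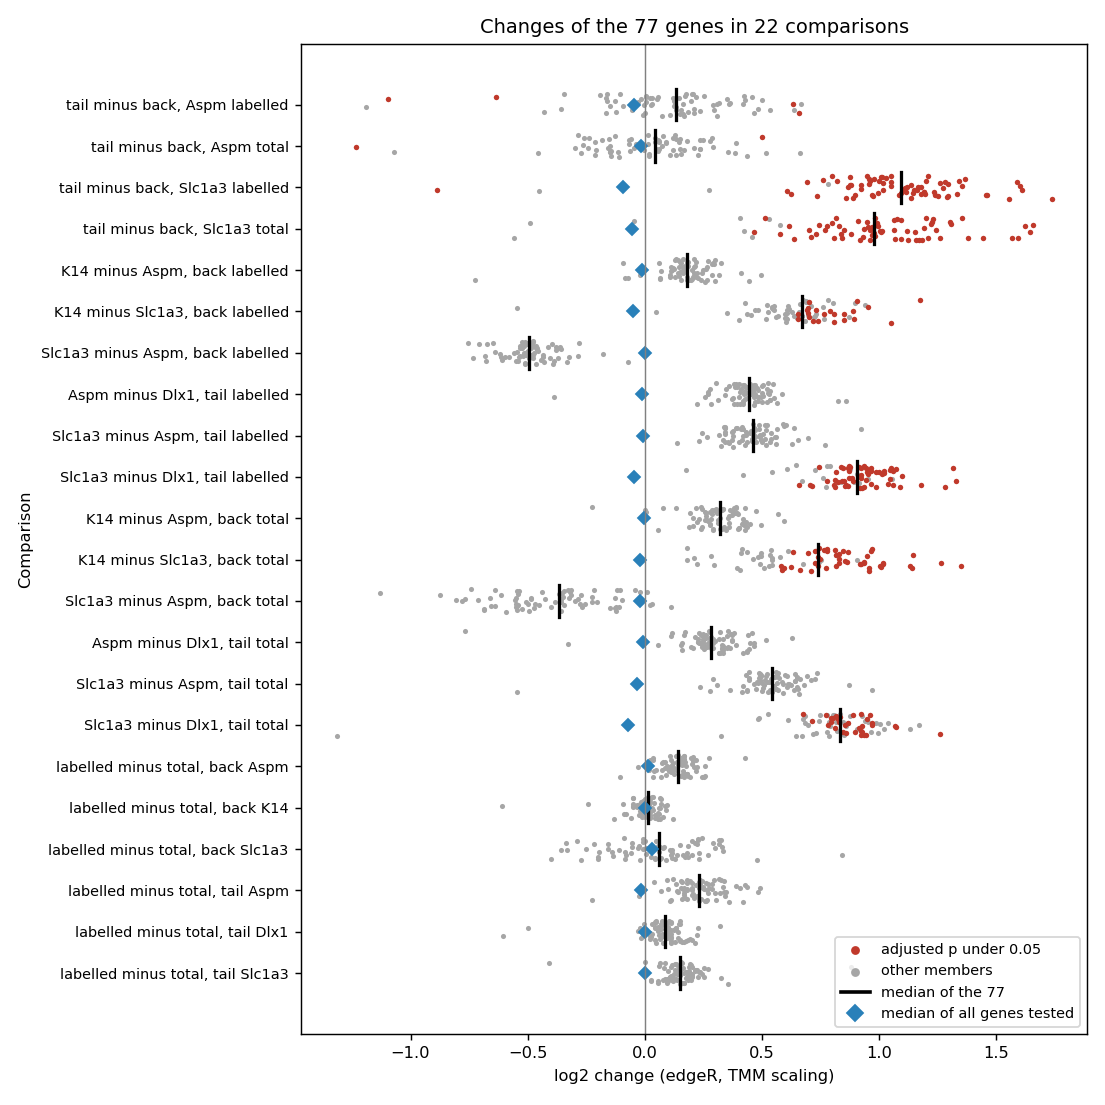
Log2 change of each of the 77 genes (points) in each comparison of site, line and gate, as the first-named group minus the second; red points passed at an adjusted p under 0.05, the black bar is the members' median and the blue diamond the median of all genes tested. The tail over back strips of Slc1a3CreER centre on 1.10 in labelled and 0.98 in total cells, and those of AspmCreER on 0.13 and 0.04.

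Whether the tail over back change differed between the lines was tested as a comparison of effects, added after the data were seen. In labelled cells the change was larger in Slc1a3CreER than in AspmCreER for all 77 members, with a median difference of 0.93, and edgeR called 0 members, where 0.137% of all genes passed. This count depends on the setting: without the low-count filter edgeR called 70 members, and DESeq2 called 26. The lowest adjusted p with the filter was 0.0534 (Rpl35a), and 74 members had an unadjusted p under 0.05. In total cells the median difference was 0.95 and edgeR called 0 members, where 0% of genes passed, with 63 members at an unadjusted p under 0.05, and 59 were called without the filter and 43 by DESeq2. Without back Slc1a3CreER total library 4, edgeR called 16 members in labelled and 0 in total cells, where the median difference was 0.94. It called 8 in labelled cells without back Slc1a3CreER labelled library 1, 2 without back AspmCreER labelled library 1 and 1 without library 2, and 1 in total cells without back Slc1a3CreER total library 1.

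Length classes moved with the same contrast. In tail over back Slc1a3CreER labelled cells, the median log2 change over all coding genes was 0.77 for mRNAs under 1000 bases and -0.54 for those of 4000 bases or more. In AspmCreER labelled cells it was 0.23 and -0.21. When each length class was scaled on its own, an alternative chosen after seeing the data, 58 members still rose and 1 fell in Slc1a3CreER labelled cells, with a median of 0.56, and 48 rose and 1 fell in total cells, with a median of 0.49. Basal keratinocyte markers summed to 117800 to 121300 CPM in tail, against 59810 to 66070 CPM in back Slc1a3CreER labelled cells, and to 101100 to 101700 CPM in tail, against 63550 to 91870 CPM in back total cells. Of the 10 basal markers none was at 0, and 2 rose and 5 fell in labelled cells: the keratins Krt14 and Krt5 rose by 2.29 and 1.29 on the log2 scale, and Krt15 fell by 2.64. Fibroblast markers summed to 38.5 to 39.2 CPM in tail, against 2.92 to 4.57 CPM in back Slc1a3CreER labelled cells, and Langerhans cell markers to 32.5 to 37.7, against 62.5 to 261 CPM. Of the 6 fibroblast markers Lum was at 0 in the tail libraries, no Langerhans cell marker was at 0 in either, and the part of these cells and of the basal cells in the result was not tested. In AspmCreER labelled cells, where the members' median change was 0.13, these sums moved the same way. Basal sums were 92540 to 95400 CPM in tail, against 71120 to 76500 CPM in back. Fibroblast sums were 22.4 to 28.9, against 0.968 to 6.47 CPM, and Langerhans sums 27.9 to 36.6, against 66.4 to 113 CPM. There Lum and Ptprc were at 0 in tail, and Krt14, Krt5 and Krt15 changed by 1.53, 0.60 and -2.62.

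Among tail lines, Slc1a3CreER labelled cells had higher levels than Dlx1CreER labelled cells, with a median change of 0.91 (1.88-fold). Each line is its own set of mice, so the marked lineage and the mouse background cannot be told apart here. In this comparison 59 members rose and none fell, where 5.47% of all genes passed and 2.31% were higher. Rps2, a small-subunit protein near the mRNA entry channel, had 2705 and 2492 CPM in Slc1a3CreER, against 1196 and 891 CPM in Dlx1CreER labelled cells (log2 change 1.32, SE 0.28, adjusted p = 0.00989). Rplp1 had 3747 and 3190 CPM, against 1829 and 1415 CPM (log2 change 1.10, SE 0.22, adjusted p = 0.0064). Neither gene had overlapping groups. Rpl26, known in mammals to bind p53 mRNA, changed by 1.33, Rpl30 by 1.28, Rps14 by 1.18 and Rpl37a by 1.09. These calls rest on single libraries: 0 members passed without the first Slc1a3CreER or the second Dlx1CreER labelled library, and 39 without the first Dlx1CreER one. Over the 7 other settings the count was 14 to 72.

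In total cells the same lines gave 33 higher members and none lower, where 1.92% of all genes passed and 0.978% were higher, with a median change of 0.84. All 33 were among the 59 of labelled cells, that is 55.9% of the labelled list and 100% of the total list. Rps2 had 2534 and 2133 CPM in Slc1a3CreER, against 1122 and 824 CPM in Dlx1CreER total cells (2.40-fold, SE of the log2 change 0.28, adjusted p = 0.0272). Rpl39 and Rplp1 each changed by 1.07, and Fau by 0.97. The count was 0 without the first Slc1a3CreER or the second Dlx1CreER total library, 4 without the first Dlx1CreER total library, and 67 without back Slc1a3CreER total library 4, and it was 7 to 69 over the 7 other settings. Bulge markers summed to 1155 to 1186 CPM in Slc1a3CreER, against 1846 to 1854 CPM in Dlx1CreER total cells, and their part in the result was not tested.

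The other tail pairs gave no calls by edgeR as fitted over all groups, and few under other settings. AspmCreER against Dlx1CreER labelled cells gave 0 members (0.0915% of all genes passed), with a median of 0.44, 28 members at an unadjusted p under 0.05 and 0 called by DESeq2; edgeR called 2 without the low-count filter and 1 with the compared groups alone. In total cells that pair gave 0 (0.0343%), with a median of 0.28, 2 and 0. Slc1a3CreER against AspmCreER labelled cells gave 0 (0.492%), with a median of 0.46, 29 and 0, and edgeR called 5 without the filter and 6 with the compared groups alone. In total cells that pair gave 0 (0.00572%), with a median of 0.54, 53 and 0, and edgeR called 4 without the filter. Each pair shares libraries with the Slc1a3CreER and Dlx1CreER comparison, so these values are not separate evidence.

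Length classes and markers moved with the tail Slc1a3CreER over Dlx1CreER comparison too. Over coding genes under 1000 bases the median log2 change was 0.55 in labelled and 0.45 in total cells, and over those of 4000 bases or more it was -0.33 and -0.29. With each length class scaled on its own, the members' median was 0.46 in labelled and 0.35 in total cells, and 14 and 7 members passed. Bulge markers summed to 369 to 488 CPM in Slc1a3CreER, against 1093 to 1172 CPM in Dlx1CreER labelled cells, with none of the 8 at 0. Basal keratinocyte markers summed to 117800 to 121300 CPM in Slc1a3CreER, against 80780 to 90880 CPM in Dlx1CreER labelled cells, and none of the 10 passed. Langerhans cell markers summed to 32.5 to 37.7 CPM, against 7.97 to 10.8 CPM, with none of the 6 at 0, and their part in the result was not tested.

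In back skin, K14CreER had higher levels than Slc1a3CreER, and here too the marked lineage and the mouse background cannot be told apart. In labelled cells 22 members rose and none fell, where 2.8% of all genes passed and 1.7% were higher, with a median of 0.67 (1.59-fold). Rpl31, a large-subunit protein near the exit tunnel, had 899 and 934 CPM in K14CreER, against 444, 374 and 401 CPM in Slc1a3CreER labelled cells (log2 change 1.17, SE 0.26, adjusted p = 0.0186). Rps7, known to bind Mdm2, had 1292 and 1334 CPM, against 736, 547 and 616 CPM (log2 change 1.05, SE 0.17, adjusted p = 0.00416). Every K14CreER library was above every Slc1a3CreER library for both genes. Rpl27 (0.95), Rpl23a (0.91), Rpl32 (0.89) and Rpl9 (0.89) followed. The count was 0 without either K14CreER labelled library. It was 1 without Slc1a3CreER labelled library 2, 4 without library 4 and 49 without library 1, and 55 without Slc1a3CreER total library 4. Over the 7 other settings it was 9 to 57. Rpl31 and Rpl23a are among the genes with opposite-strand overlap, and 18 of the 68 members without overlap rose.

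In total cells, 46 members rose and none fell in K14CreER over Slc1a3CreER, where 7.76% of all genes passed and 4.71% were higher, with a median of 0.74. No member passed when only the 2 compared groups were fitted, and up to 60 did under the other settings. Of the 46, 19 also passed in labelled cells, which is 86.4% of the labelled list and 41.3% of the total list. Rpl31 had 888 and 860 CPM in K14CreER, against 439, 426 and 162 CPM in Slc1a3CreER total cells (log2 change 1.35, SE 0.26, adjusted p = 0.00554); the 162 CPM is the library that stands apart. Rpl27 changed by 2.40-fold, and Rps25 by 1.14 on the log2 scale. Without that library 56 members passed, with a median of 0.72, and the log2 changes were 1.02 for Rpl31, 0.94 for Rpl27 and 0.78 for Rps25. Without either K14CreER total library 0 passed.

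The same measures moved in this pair of lines. Over coding genes under 1000 bases the median log2 change of K14CreER over Slc1a3CreER was 0.30 in labelled and 0.46 in total cells, and over those of 4000 bases or more it was -0.26 and -0.34. With each length class scaled on its own, the members' median was 0.43 in labelled and 0.48 in total cells, and 12 and 15 members passed. Basal keratinocyte markers summed to 79470 to 89260 CPM in K14CreER, against 59810 to 66070 CPM in Slc1a3CreER labelled cells, where 1 of the 10 rose. Langerhans cell markers summed to 52 to 54.2 CPM in K14CreER, against 62.5 to 261 CPM in Slc1a3CreER labelled cells, and fibroblast markers to 7.05 to 10.6, against 2.92 to 4.57 CPM. Lum and Pdgfra were at 0 in the K14CreER labelled libraries, and the part of these cells in the result was not tested.

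Slc1a3CreER against AspmCreER back skin gave 0 calls by edgeR as fitted over all groups, and 19 members in labelled and 25 in total cells without the low-count filter. In labelled cells (0.16% of all genes passed) all 77 members were negative, with a median of -0.49, 61 had an unadjusted p under 0.05 and DESeq2 called 6 lower. There edgeR called 6 without back Slc1a3CreER total library 4, 2 without Slc1a3CreER labelled library 1 and 1 without AspmCreER labelled library 1. In total cells (0.0114%) the median was -0.37, with 40 members at an unadjusted p under 0.05 and 7 called lower by DESeq2, and without back Slc1a3CreER total library 4 it was -0.40 with 0 calls by edgeR. K14CreER against AspmCreER gave 0 in labelled cells (0.2%), with a median of 0.18, 0 at an unadjusted p under 0.05 and 0 by DESeq2, and 0 in total cells (0.0686%), with a median of 0.32, 11 and 0.

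Labelled cells were then compared with total cells of the same line and site. Total interfollicular epidermis is not a set of unlabelled cells, so this comparison puts a part against the whole. Its changes can be smaller than those against unlabelled cells would be. No member passed in any of the 6 pairs, by edgeR, by DESeq2 or with the pairs kept as a replicate block. With edgeR fitted without the block, no member had an unadjusted p under 0.05. All unadjusted p-values given for the gates come from that fit, which does not use the pairing. The median change was 0.15 in tail Slc1a3CreER (0.514% of all genes passed), 0.23 in tail AspmCreER (0.00572%) and 0.09 in tail Dlx1CreER (0%). In back skin it was 0.01 in K14CreER (0.00572%), 0.14 in AspmCreER (0%) and 0.06 in Slc1a3CreER (0.109%). The gene with the second-lowest p in tail AspmCreER, Rpl35, had a change near the largest among the members (0.49). It had 351 and 430 CPM in labelled cells, against 265 and 312 CPM in total cells (log2 change 0.44, edgeR unadjusted p = 0.0703). Rpl35 has opposite-strand overlap, so its level is uncertain. Rps23 had a log2 change of 0.41 (unadjusted p = 0.0621), and Rps7 one of 0.34. In tail Slc1a3CreER the lowest p belonged to Rpl41 (0.36), Rplp1 (0.25) and Rps10 (-0.41), and in tail Dlx1CreER to Rps10 (-0.50), Rpl41 (0.32) and Fau (0.22). In back AspmCreER it belonged to Rpl22 (0.26), Rpl39 (0.27) and Rpl35a (0.26), and in back K14CreER to Rpl24 (-0.61), Rps10 (-0.24) and Rpl35 (0.12). In back Slc1a3CreER it belonged to Rps26 (0.48), Rpl7 (-0.33) and Rpl36 (-0.40), where the total group holds the library that stands apart. Without it these 3 changes were 0.17, -0.0053 and 0.02, the median was 0.04 and 0 members passed. The middle 50% of members lay within 0.17 to 0.29 in tail AspmCreER and within -0.01 to 0.03 in back K14CreER. The summed share was higher in labelled than in total cells in 6 of 6 tail pairs and in 4 of 8 back pairs. The share of long mRNAs was lower in labelled than in total cells in 6 of 6 tail pairs and in 3 of 8 back pairs. Bulge markers were also lower in labelled cells of tail skin, with sums of 369 to 488, against 1155 to 1186 CPM in total cells of Slc1a3CreER. They summed to 731 to 872 CPM in labelled, against 1039 to 1144 CPM in total cells of AspmCreER, and to 1093 to 1172, against 1846 to 1854 CPM in those of Dlx1CreER. In back K14CreER they were lower too (282 to 328, against 421 to 444 CPM), where the share was higher in labelled cells in 0 of 2 pairs. The ranges overlapped in back Slc1a3CreER (220 to 500, against 450 to 637 CPM) and AspmCreER (330 to 654, against 427 to 807 CPM). None of the 8 was at 0, and the part of these cells in the result was not tested. The gate effect was set against site in 2 comparisons of effects, which gave 0 members in Slc1a3CreER (0.0915% of all genes passed), with a median of 0.09 (0.12 without the library that stands apart), and 0 in AspmCreER (0%), with a median of 0.09; no member had an unadjusted p under 0.05 in either, and DESeq2 called 0.

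The members were next set against each other inside each library, as the log2 level minus the mean of all members. The median SD of this relative level over the 28 libraries was 0.18, and 47 of the 77 genes were under 0.2. Among the steadiest were Rps28 at 0.0792, Rpl36a at 0.0795 and Rpl7a at 0.081. The most variable were Rps10 at 0.691, Rpl24 at 0.684, Rpl26 at 0.402 and Rpl13a at 0.379, of which Rpl26 has no same-strand overlap. Without the library that stands apart these 4 values were 0.672, 0.645, 0.401 and 0.359. The order of the steadiest genes depended on that library. Without it Rps28, Rpl36a and Rpl7a had 0.079, 0.078 and 0.0694, and the lowest were Rpl14 (0.0434), Rps9 (0.047) and Rps6 (0.0498). The median of 0.18 and the count of 47 include that library.

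Relative levels at the 2 sites did not overlap for a few genes. Every tail library was above every back library for 8 members, among them Rpl12, Rpl32, Rplp0, Rps13, Rps18, Rps25 and Rps27, where 2.01% of all genes tested lay so on the same measure. Every tail library was below every back library for 4 of the 77 members, Rpl13a, Rpl22, Rps10 and Rps24. This share is near the 3.47% of all genes that lay so. Rpl13a and Rps10 have same-strand overlap and Rps25 has opposite-strand overlap, so their values are uncertain. The relative level of Rpl32 was 0.15 to 0.37 in tail libraries and -0.59 to -0.02 in back libraries. That of Rpl22, whose paralogue Rpl22l1 is a known substitute for it, was -0.32 to -0.11 in tail and 0.02 to 0.31 in back libraries. Without back Slc1a3CreER total library 4, Rpl10a and Rpl36 joined the higher genes and Rps4x the lower ones, giving 10 and 5. The relative level of Rpl32 in back libraries was then -0.30 to -0.02.

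**Figure D5:**
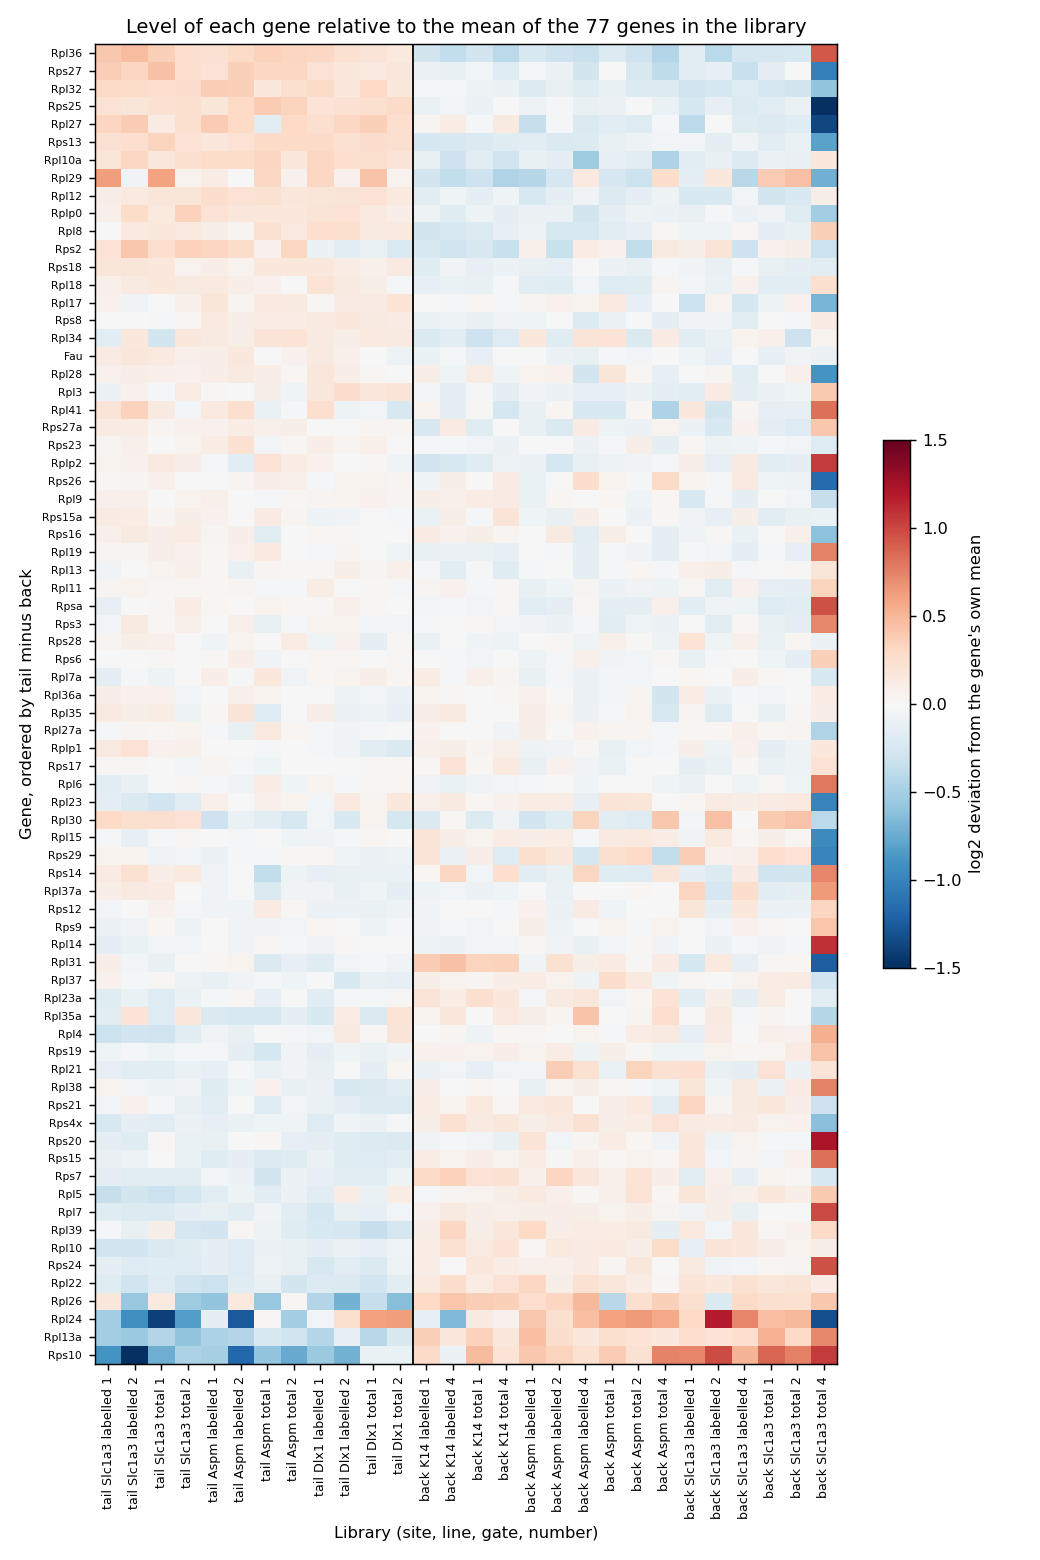
Relative level of 74 of the 77 genes in each library, on the log2 scale, after the mean of all members in that library and the gene's own mean were taken off; tail libraries stand left of back libraries. Rpl32 lies at 0.15 to 0.37 in tail and at -0.59 to -0.02 in back libraries, and back Slc1a3CreER total library 4, at the right edge, departs from the rest. Without that library the back range of Rpl32 is -0.30 to -0.02.

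Members with and without a TOP run at the annotated start had medians close to each other. In tail over back Slc1a3CreER labelled cells the median was 1.07 for the 14 with a run and 1.02 for the 43 without, and in AspmCreER labelled cells 0.15 and 0.12. Of the sequences shown, Rps6 and Rps27 carry a run and changed by 1.10 and 1.60 on the log2 scale in the Slc1a3CreER comparison, and Rplp0, without one, changed by 1.30.

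Other genes of translation were read from lists beside the members in the Slc1a3CreER labelled comparison of tail with back, where 19% of all genes were higher and 21.6% lower, and 42.6% of other coding genes with mRNAs under 1000 bases were higher. Of 77 mitochondrial ribosomal protein genes 57 rose and none fell, with a median of 0.87. Of 18 other TOP mRNAs 13 rose and 2 fell (median 0.75), among them Eef2, the translocation factor (1.13), and Rack1, a protein of the small subunit (1.15). Of 42 genes of ribosome biogenesis 23 rose and 2 fell (median 0.53), among them Nip7 (1.45) and Pes1 (1.15). Of 54 initiation factor genes 27 rose and 5 fell (median 0.51), with Eif5a at 1.42 and Eif4a2 at -2.01. Of 20 genes of translation control 7 rose and 2 fell (median 0.08), Eif4ebp1, the repressor of the cap-binding factor eIF4E, rising by 1.89. Of 13 immediate early genes 1 rose and 8 fell (median -1.72). In AspmCreER labelled cells 14 mitochondrial ribosomal protein genes rose and 1 fell (median 0.28), which is 18.2% higher, near the 12.7% of all genes and the 19.1% of other coding genes under 1000 bases. There 12 genes of biogenesis (28.6%) rose and 1 fell (median 0.36).

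The same lists in the comparisons of lines gave these counts. In tail Slc1a3CreER over Dlx1CreER labelled cells, where 2.31% of all genes and 11.7% of other coding genes under 1000 bases were higher, 5 of 77 mitochondrial ribosomal protein genes rose and none fell (median 0.51), 5 of 18 other TOP mRNAs rose and none fell (median 0.61), and 1 gene of biogenesis rose and 1 fell (median 0.09). In back K14CreER over Slc1a3CreER total cells, where these shares were 4.71% and 16.02%, 21 mitochondrial ribosomal protein genes and 9 other TOP mRNAs rose and none fell (medians 0.50 and 0.52), and 2 genes of biogenesis rose (median -0.03).

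Genes near the family but outside the rule had these levels. Rps3a1, the gene for the small-subunit protein Rps3a, ranged from 967 to 2737 CPM over the 28 libraries and rose by 0.97 in tail Slc1a3CreER labelled cells. Of the paralogues, Rps27l (1.05) and Rpl7l1 (0.73) rose in the Slc1a3CreER comparison, as did Rps19bp1 (1.14), which encodes a partner of Rps19. Rpl22l1 ranged from 47.1 to 137 CPM. Rpl3l, Rpl10l and Rpl39l, known for muscle and testis, had a median of 0 and were at most 0.306 CPM.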

How the data were processed

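The authors deposited raw counts per gene, 1 file per library, for 28 RNA-seq libraries in 12 groups of line, site and gate. Per the labels' protocols, RNA was extracted with TRIzol, selected for poly(A) and made into libraries with a non-directional kit, so the counts do not resolve strand. Per the submitters' processing notes, the tools included Trim Galore 0.6.0, cutadapt, FastQC, STAR 2.7.0e and DESeq2 1.26.0, with GRCm38 (mm10); the counting program and its strand setting are not given in the sources used here. Gene names and lengths came from GENCODE M21, which matched all 55536 identifiers, and 5′ starts from RefSeq on GRCm38.p6.

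Genes were filtered with filterByExpr, scaled by TMM and tested with edgeR 4.0.16 (robust quasi-likelihood) in R 4.3.3, in 1 fit with a mean for each of the 12 groups, and p-values were adjusted over 17493 genes by Benjamini-Hochberg; an adjusted p under 0.05 passed. Counts were given as CPM, and relative levels as log2 of CPM plus 0.5. The fit had 16 residual degrees of freedom. The alternatives were DESeq2 1.42.0, other scalings, no filter, the compared groups alone, each library left out and a replicate block. The labels do not say which libraries came from 1 mouse, so p-values cover only the variation among these libraries, which may be technical. Labelled and total libraries that share line, site and number deviated together in all 14 pairs (correlations of 0.18 to 0.689 over 10376 genes) and were taken as paired. Both pairs of a group of 2 give 1 value, and libraries that share a number but not a line gave -0.331 to 0.343, a range that holds the 3 back Slc1a3CreER pairs (0.18 to 0.216), so the pairing there is weakly supported. On simulated counts of the back Slc1a3CreER gate comparison over 17493 genes, the fit recovered 43 and 37 of 50 genes changed 2-fold up and down, 48 and 50 of 50 at 4-fold, and made 7 false calls. These counts were drawn independently for each library, without pairing and without a library that stands apart. The changed genes were not taken from the lowest levels, and changes as small as the gate medians were not simulated. Named genes were those with the highest, lowest, steadiest and most variable levels, up to 6 passing each way per comparison by size, the 3 with the lowest p where the gate gave none, and proteins with roles of their own. The members and lists were chosen with earlier results of these data known. Columns of other samples numbered 0. A few genes are not reported here.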

Additional observations from a re-analysis of the deposited data

How the results depend on the processing

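The direction of the tail over back change of Slc1a3CreER held under every alternative run, and with the replicate block, fitted for the 6 gate comparisons and the 2 of gate by site, no member passed (median 0.04 in back Slc1a3CreER), so the block changed no call. Of counts of members passing, 286 of the alternatives were within 1.5 times the main count and 68 were not; of named genes' calls, 425 held and 110 lost the threshold, and 0 changed sign. Causes were not tested. Without the low-count filter the labelled counts were 19 for back Slc1a3CreER over AspmCreER (0 as reported), 57 for K14CreER over Slc1a3CreER (22), 2 for tail AspmCreER over Dlx1CreER (0) and 5 for tail Slc1a3CreER over AspmCreER (0). In total cells they were 25 for back Slc1a3CreER over AspmCreER (0), 69 for tail Slc1a3CreER over Dlx1CreER (33) and 4 for tail Slc1a3CreER over AspmCreER (0). Tail over back gave 10 in AspmCreER labelled cells (4) and 4 in total cells (2), and the difference of site effects between lines 70 and 59 (0 and 0). DESeq2 gave 6 and 7 for back Slc1a3CreER over AspmCreER in labelled and total cells, 40 for labelled K14CreER over Slc1a3CreER, 64 for total tail Slc1a3CreER over Dlx1CreER, 8 for AspmCreER labelled tail over back, and 26 and 43 for the difference of site effects. DESeq2 size factors gave 12 for labelled K14CreER over Slc1a3CreER and 7 for AspmCreER labelled tail over back. Library totals as scaling, which moved the median of all genes in Slc1a3CreER labelled tail over back to -0.29, gave 9, 38 and 9 for labelled K14CreER over Slc1a3CreER and for labelled and total tail Slc1a3CreER over Dlx1CreER. With the compared groups alone the counts were 1 and 6 for labelled tail AspmCreER over Dlx1CreER and Slc1a3CreER over AspmCreER, 0 for total K14CreER over Slc1a3CreER, 20 for total tail Slc1a3CreER over Dlx1CreER, and 8 and 4 for AspmCreER tail over back. Scaling within length classes gave 1 for labelled back Slc1a3CreER over AspmCreER, 12 and 15 for labelled and total K14CreER over Slc1a3CreER, 14 and 7 for labelled and total tail Slc1a3CreER over Dlx1CreER, and 8 and 5 for AspmCreER tail over back. Leaving out each library in turn gave 0 to 6 for labelled back Slc1a3CreER over AspmCreER, 0 to 55 and 0 to 56 for labelled and total K14CreER over Slc1a3CreER, 0 to 74 and 0 to 67 for labelled and total tail Slc1a3CreER over Dlx1CreER, 45 to 72 for total Slc1a3CreER tail over back, 0 to 12 and 0 to 5 for AspmCreER tail over back, and 0 to 16 and 0 to 1 for the difference of site effects. Groups of 2 or 3 libraries and a shared estimate of spread limit the precision of each comparison.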
